A study of Mus musculus with 155 samples.

Results

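The time course of WT-H3.3 embryonic stem cells (ESCs) comprised 8 RNA-seq libraries, out of 155 samples in the series and 32 ESC RNA-seq libraries in one count table. They were chosen as every library of the WT-H3.3 line that had received no GSK343, a PRC2 inhibitor. The study set cells that express H3.3K27M, a lysine-to-methionine mutant of the histone variant H3.3, against cells that express WT-H3.3, so these 8 libraries are its control arm followed over time. Another line, not a member, expressed H3.3K27L, in which the same lysine is a leucine. The line was made from KH2 FLIP-in mouse ESCs, in which a single inducible copy of SNAP- and HA-tagged WT H3.3 had been inserted. All 8 libraries carried this transgene, and all had received doxycycline (Dox), which switches it on, for 4, 8, 24 or 72 h. Each time had 2 biological replicates, numbered 1 and 2 and grown weeks apart. The 24 and 72 h libraries (late) were compared with the 4 and 8 h libraries (early), 4 libraries a side, with the replicate number as a block. None of the 8 was without Dox, so time under Dox, time with the transgene on and time in culture cannot be told apart. The series has 1 such WT-H3.3 line, and its methods mention a possible gain of chromosome 8 in all clones, so genes on that chromosome were left out.

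H3.3 is the histone H3 variant that is put into chromatin outside of DNA replication, at active promoters and enhancers by HIRA and at repeats by DAXX and ATRX. The endogenous protein is made from the genes H3f3a and H3f3b. Mouse ESCs in serum with LIF and inhibitors of MEK and GSK3, as used here, express the pluripotency factors at a high level and hold much less DNA methylation than cells in serum and LIF alone. Germline genes, which serve meiosis and the piRNA pathway, are kept low in ESCs by promoter DNA methylation and by a variant Polycomb complex that binds E-box and E2F sites.

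The 8 libraries held between 8245552 and 16083610 counts, with a median of 11799110. Levels are given as CPM, counts per 1000000 counts of the library, scaled by TMM, and 12987 genes passed the filter on low counts. The 11 ESC markers summed to between 6471 and 6916 CPM in the early libraries and between 5782 and 7115 CPM in the late libraries, without TMM scaling. The 10 fibroblast markers, which would show feeder cells, summed to between 8.31 and 14.2 CPM early and between 16.4 and 20.3 CPM late. Postn and Dcn were at or near 0 in every library, Lum reached at most 0.537 CPM, and 6 of the 10 stayed under 1 CPM. In the 24 h library of replicate 1, Col1a1 was at 5.05 CPM, against between 0.141 and 1.48 CPM in the others. Col3a1 was at 0.804 CPM in that library and at most 0.0705 CPM elsewhere. The 8 extraembryonic endoderm markers summed to between 7.25 and 11.8 CPM early and between 7.67 and 12.6 CPM late, with Afp at 0. The 7 trophoblast markers summed to between 98.0 and 114.8 CPM early and between 94.5 and 114.3 CPM late. The 7 neural markers, of which 6 were in the table, summed to between 125.8 and 159.2 CPM early and between 170.0 and 246.9 CPM late, nearly all of it Tubb3 and Nes. The 4 mesoderm markers summed to between 3.295 and 6.91 CPM early and between 3.88 and 5.63 CPM late. In bulk libraries, fewer cells of a type and less RNA per cell cannot be told apart.

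The libraries differed in how expression related to gene length. For each library, the Spearman coefficient between a gene's exonic length and its level relative to the mean of the 8 libraries was computed over 12107 genes. At 4 h it was -0.45 in replicate 1 and -0.14 in replicate 2. At 8 h it was -0.53 and 0.49, and at 24 h it was -0.49 and 0.25. At 72 h it was 0.42 and 0.45. Replicate 1 was therefore negative at every time up to 24 h, and both 72 h libraries were positive. The first principal component held 64.4% of the variance among the 8 libraries, and its scores had an absolute correlation of 0.994 with these coefficients, as a description over libraries that share their times and replicates. The labels do not tie a library to one of the library kits that the methods name. A refit of each comparison that removes the length trend of each library, called the length offset here, was therefore added after the data were seen.

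**Figure D1:**
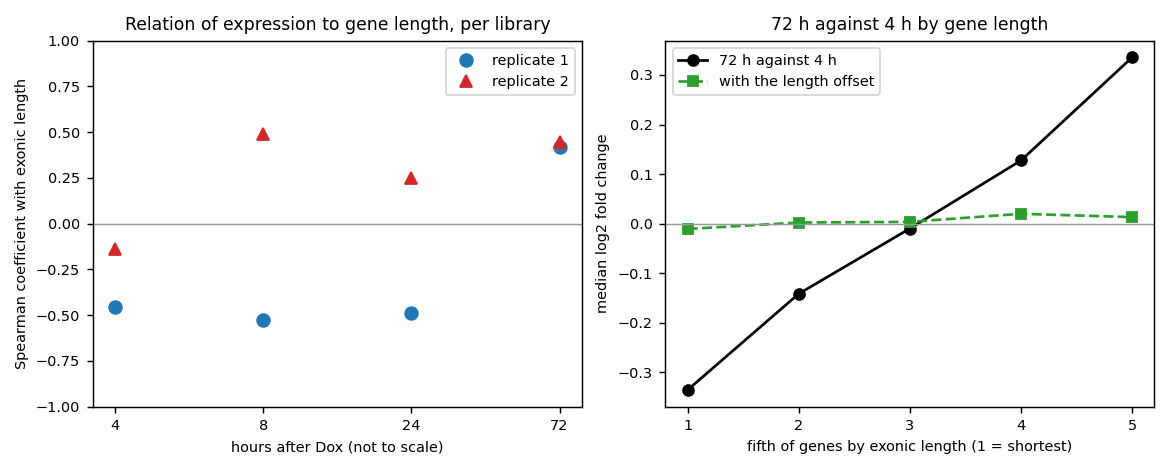
Left, the Spearman coefficient between exonic length and a gene's level relative to the mean of the 8 libraries (vertical axis) for each WT-H3.3 library by hours after Dox (horizontal axis, not to scale), with 1 point a library. Right, the median log2 fold change of 72 h against 4 h in 5 classes of genes by exonic length, before and after the length offset; it runs from -0.34 in the shortest class to 0.34 in the longest, and from -0.01 to 0.02 with the offset.

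Between the 4 late and the 4 early libraries no gene was called, where a call needs an adjusted p under 0.05 and a fold above 2 or below 0.5 (0 of 12987 genes, 0%). At an unadjusted p under 0.05, 1194 genes were higher late (9.19%) and 648 were lower (4.99%) in edgeR's quasi-likelihood test. DESeq2 called 81 genes higher and 5 lower, and edgeR with a mean for each of the 4 times in place of a common late level called 45 higher (0.347%) and 7 lower (0.0539%), or 0.4% in all. Leaving out the 24 h library of replicate 1 gave 79 genes higher and 16 lower, and leaving out the 72 h library of replicate 1 gave 3 higher and 1 lower. The 4 late libraries all lay above the 4 early ones for 458 genes (3.53%) and below them for 358 (2.76%). Within each replicate number taken alone, both late libraries lay above both early ones for 973 genes (7.49%) and below them for 825 (6.35%).

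The pair of genes with the lowest p in this comparison were Slc1a4 and Cfp. The genes named from it were chosen for late and early libraries that lay apart within each replicate number, so that separation is no finding. Slc1a4, a carrier of neutral amino acids, measured 6.75 and 9.72 CPM at 4 h, 11.3 and 10.4 CPM at 8 h, 19.2 and 23.1 CPM at 24 h, and 19.8 and 28.6 CPM at 72 h in replicates 1 and 2. All 4 late libraries lay above all 4 early ones, and the log2 fold change was 1.24 ± 0.17 (SE), with an adjusted p of 0.0959 that did not pass. Cfp, properdin of the alternative complement pathway, measured 20.3 and 18.0 CPM at 4 h, 19.4 and 19 CPM at 8 h, 8.69 and 10.2 CPM at 24 h, and 6.63 and 7.29 CPM at 72 h. Its late libraries all lay below its early ones, with a log2 fold change of -1.24 ± 0.16 and the same adjusted p of 0.0959 in edgeR's quasi-likelihood test.

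The other genes named by this rule, up to 12 in each direction, had an adjusted p of 0.112 in edgeR's quasi-likelihood test, as did further genes, and none of them passed. On the higher side they were Rnf213, Rec8, Myh14, Ccdc158, Parp11, Lama3, Myh3, Acan, Nupr1, Ephx1 and Specc1, with log2 fold changes between 0.88 (Specc1) and 1.84 (Ccdc158). Rec8, a cohesin subunit of meiosis, measured between 8.28 and 12.2 CPM in the early libraries and between 18.1 and 21.5 CPM in the late ones. Lama3, a laminin chain, measured between 15.0 and 17.2 CPM early, 29.0 and 26.5 CPM at 24 h, and 51.6 and 57.0 CPM at 72 h. On the lower side they were Nt5e, Egfl6, Znhit2-ps, Tlcd1, Manba, Zfp459, Tbx20, Serpinb9b, Ubl3, Nras and Ddc, with log2 fold changes between -0.50 (Nras) and -1.35 (Tbx20). Nras, a RAS GTPase upstream of MEK, measured between 182.1 and 239.8 CPM early and between 132.6 and 154.7 CPM late. Under the same rule, the largest differences among genes whose mean reached 5 CPM on the higher side were those of P2rx7 (1.96), Kdm5d (1.62), Piwil2 (1.58), Cntln (1.52) and Parp11 (1.52) on the higher side. All of these but Piwil2 reached that limit only in the late libraries. On the lower side they were those of Foxd1 (-1.26), Cfp (-1.24), Serpinb9b (-1.14), Egfl6 (-1.13) and Cabp4 (-1.01).

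**Figure D2:**
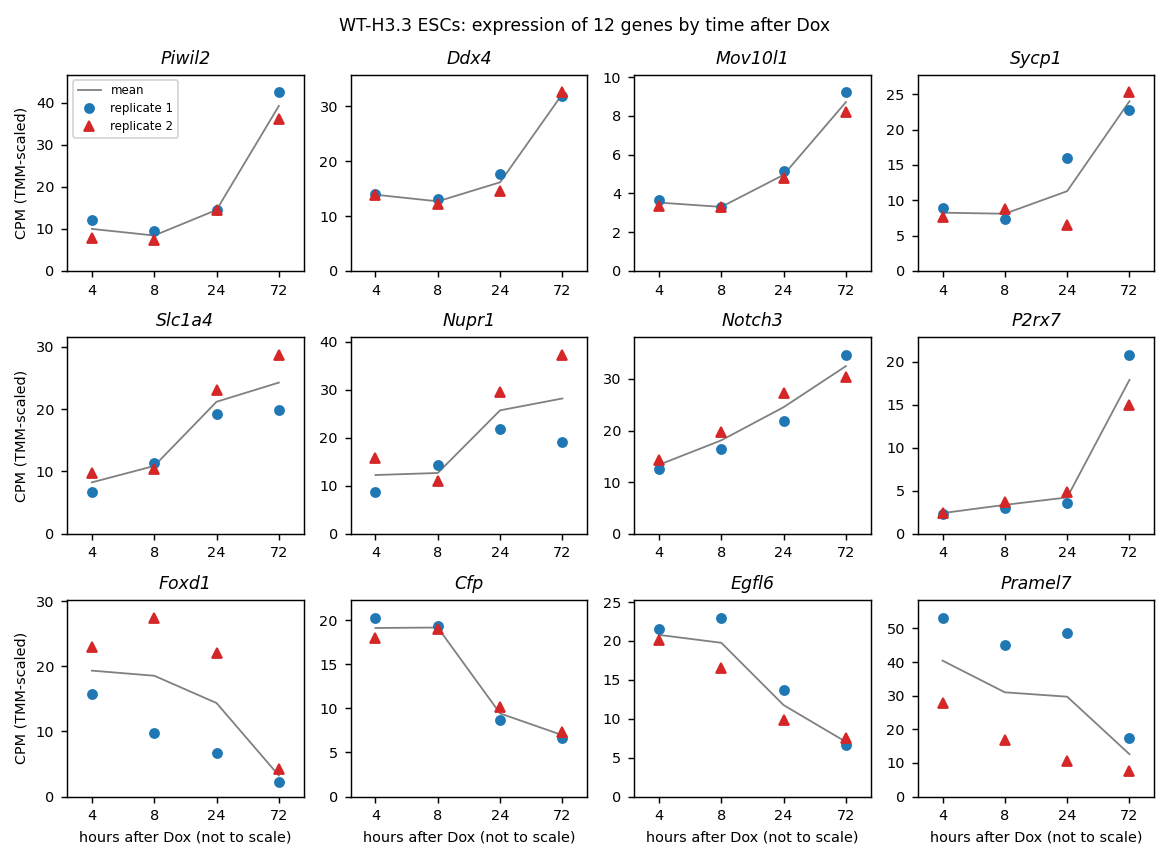
Levels (CPM, vertical axes) of single genes in the 8 WT-H3.3 libraries by hours after Dox (horizontal axes, not to scale). Each point is 1 library, with separate markers for replicates 1 and 2, and lines join the means of the replicates; Piwil2 lies between 7.36 and 14.6 CPM up to 24 h and at 42.5 and 36.0 CPM at 72 h.

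Between neighbouring times no gene was called (0%) in edgeR's quasi-likelihood test. For 8 h against 4 h, 193 genes were higher (1.49%) and 118 lower (0.909%) at an unadjusted p under 0.05, and the lowest adjusted p was 0.992. For 24 h against 8 h, 401 were higher (3.09%) and 267 lower (2.06%), and the lowest adjusted p was 0.924. For 72 h against 24 h, 1356 were higher (10.4%) and 1285 lower (9.89%), and the lowest adjusted p was 0.0664. DESeq2 called 0 genes in the steps to 8 h and to 24 h, and 41 higher and 27 lower in the step to 72 h. Leaving out the 72 h library of replicate 2 raised that step to 501 calls, leaving out an 8 h library gave 151 (replicate 1) or 153 (replicate 2), and leaving out the 72 h library of replicate 1 gave 18.

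The genes of lowest p in the steps did not pass either. Cyp1a1, a cytochrome P450 that oxidises aromatic compounds, measured 43.9 and 35.7 CPM at 4 h, 9.31 and 1.25 CPM at 8 h, 6.73 and 7.03 CPM at 24 h, and 10.9 and 11.8 CPM at 72 h. Both 4 h libraries lay above the other 6, and the log2 fold change of 8 h against 4 h was -3.10, with an adjusted p of 0.992 in edgeR's quasi-likelihood test that did not pass. Cyp1b1, of the same enzyme family, measured 5.22 and 4.21 CPM at 4 h and between 0.0657 and 1.29 CPM in the other 6 libraries. Rbm38, an RNA-binding protein, measured 52.9 and 57.6 CPM at 4 h, 36.8 and 40.0 CPM at 8 h and between 36.0 and 47.9 CPM later. Slc16a3, a lactate exporter, was highest at 8 h, with 110.6 and 114.8 CPM against 66.4 and 74.3 CPM at 4 h and between 56.9 and 86.9 CPM later. Etv1, an ETS factor that responds to ERK signalling, was lowest at 24 h, with 10.04 and 9.17 CPM against between 16.1 and 20.8 CPM in the other 6 libraries. Zscan10, a zinc finger factor of ESCs, was also lowest at 24 h, with 82.8 and 73.2 CPM against between 99.8 and 135.2 CPM elsewhere. None of these differences between neighbouring times passed the test. The values of Slc39a14, a zinc transporter, turned at 24 h, from 29.2 and 23.0 CPM at 4 h to 11.02 and 14.7 CPM at 24 h and 41.6 and 35.4 CPM at 72 h.

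The widest interval, 72 h against 4 h, had 328 called genes (2.53% of 12987), of which 257 rose (1.98%) and 71 fell (0.547%), in edgeR's quasi-likelihood test with a mean for each time and the replicate block. DESeq2 called 235 higher and 58 lower. With the length offset, 207 rose and 54 fell among 12107 genes (1.71% and 0.446%, or 2.16% in all), of which 143 and 35 were also called without it. The count rests on the block and on single libraries. It was 2 without the block, 0 without the 4 h library of replicate 1, 1 without that of replicate 2, 26 and 45 without the 24 h library of replicate 1 or 2, 143 without the 72 h library of replicate 1, and 1072 without that of replicate 2. Without an 8 h library it was 502 (replicate 1) or 503 (replicate 2).

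The genes that rose had a median log2 fold change of 1.30 and the genes that fell one of -1.29, against 0.005 for all genes tested. In the genes that rose the median difference was 0.22 from 4 to 8 h, 0.34 from 8 to 24 h and 0.75 from 24 to 72 h. In the genes that fell it was -0.27, -0.13 and -0.91. These medians describe genes selected on the same libraries. Both 72 h libraries lay above both 4 h libraries in all 257 and below them in all 71, as they did in 31.4% and 31.8% of all genes. Of the 257 genes that rose, 159 (61.9%) had means in the order of the times, as did 9.13% of all genes. The genes that rose were longer than the genes that fell, with median exonic lengths of 6195 and 1736 bases against 3625 for all genes with a length. In 5 classes of equal number by length, 11, 24, 33, 56 and 125 genes rose from the shortest to the longest and 35, 15, 4, 9 and 2 fell. With the offset 45, 44, 42, 41 and 35 rose and 9, 12, 7, 17 and 9 fell.

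The genes of lowest p that rose were P2rx7, Slfn9, Lama3 and Piwil2, each with an adjusted p of 0.00476 in edgeR's quasi-likelihood test. P2rx7, an ATP-gated cation channel, measured 2.35 and 2.45 CPM at 4 h, 3.04 and 3.68 CPM at 8 h, 3.55 and 4.90 CPM at 24 h, and 20.8 and 15.0 CPM at 72 h. Its 72 h libraries stood far above the other 6, and the log2 fold change was 2.90 ± 0.28. Slfn9, of the Schlafen family, measured 11.7 and 7.73 CPM at 4 h, 11.9 and 9.66 CPM at 8 h, 17.8 and 13.8 CPM at 24 h, and 41.1 and 35.8 CPM at 72 h, a log2 fold change of 2.01 ± 0.18. Lama3 rose by 1.69 ± 0.16 on the log2 scale, and its 24 h libraries lay between the early and the 72 h ones. Hook1, which links cargo to microtubules, measured between 29.4 and 36.4 CPM in the 6 libraries up to 24 h and 80.4 and 86.2 CPM at 72 h, and rose by 1.26 ± 0.16 (adjusted p = 0.0115). With the length offset Hook1 had a log2 fold change of 0.95 (adjusted p = 0.0159, edgeR's quasi-likelihood test), just within the fold limit.

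Of the 25 germline genes on the list 18 were tested, 5 of these rose and none fell in 72 h against 4 h, where 1.98% of all genes rose and 0.547% fell, and 16 of the 18 had a positive difference. Their median log2 fold change was 0.75 against 0.005 for all genes, and 0.87 with the length offset, under which 6 were called. In late against early their median was 0.74, with none called there. The 5 that rose were Piwil2, Ddx4, Mov10l1, Sycp1 and Taf7l. Promoter sequences of RefSeq, GRCm38.p6 build, were held for 4 of them, and the 250 bases before the start of each are shown because all 4 contain CACGTG, the E-box hexamer (in capitals), which is palindromic and so reads alike on both strands. Piwil2 is named only.

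Ddx4, chr13:112652311-112652560, minus strand: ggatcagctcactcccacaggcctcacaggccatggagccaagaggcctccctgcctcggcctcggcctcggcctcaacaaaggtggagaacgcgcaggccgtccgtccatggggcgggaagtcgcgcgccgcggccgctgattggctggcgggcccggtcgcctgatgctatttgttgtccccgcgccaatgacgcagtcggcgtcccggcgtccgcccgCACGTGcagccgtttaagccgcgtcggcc
Mov10l1, chr15:88982744-88982993, plus strand: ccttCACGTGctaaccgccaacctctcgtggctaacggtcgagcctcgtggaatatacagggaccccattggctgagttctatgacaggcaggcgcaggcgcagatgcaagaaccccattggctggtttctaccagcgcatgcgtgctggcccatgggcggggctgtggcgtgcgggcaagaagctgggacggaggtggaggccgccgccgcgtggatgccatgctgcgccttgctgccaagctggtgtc
Sycp1, chr3:102936101-102936350, minus strand: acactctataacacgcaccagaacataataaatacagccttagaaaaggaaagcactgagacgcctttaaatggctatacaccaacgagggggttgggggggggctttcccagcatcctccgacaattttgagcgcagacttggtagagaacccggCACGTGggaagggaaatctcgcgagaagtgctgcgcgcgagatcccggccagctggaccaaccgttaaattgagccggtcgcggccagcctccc
Taf7l, chrX:134476491-134476740, minus strand: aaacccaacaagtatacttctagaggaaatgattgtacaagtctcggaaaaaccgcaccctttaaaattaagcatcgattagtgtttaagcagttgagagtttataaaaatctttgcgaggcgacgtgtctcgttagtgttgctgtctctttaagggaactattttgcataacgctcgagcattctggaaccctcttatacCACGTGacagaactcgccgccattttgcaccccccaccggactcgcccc

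The E-box starts 29 bases before the transcript start in Ddx4, 49 in Taf7l, 94 in Sycp1 and 246 in Mov10l1. It was present in 7 of the 15 tested germline genes with a promoter entry, against 6.05% of all 27025 promoters of this length. Among the genes that rose it was in 26 of 171 with an entry (15.2%), and among those that fell in 0 of 44. TCCCGC, an E2F-type hexamer searched on both strands, was in 8 of the 15 germline promoters, in 55 of the 171 (32.2%), in 8 of the 44 (18.2%) and in 16.9% of all. The 27025 promoters were not limited to genes that passed the filter on low counts, as the other sets were, so the shares come from unlike sets. A match describes the letters of the promoter and says nothing of binding.

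Piwil2, a PIWI protein of the piRNA pathway, measured 12.2 and 7.81 CPM at 4 h, 9.49 and 7.36 CPM at 8 h, 14.4 and 14.6 CPM at 24 h, and 42.5 and 36.0 CPM at 72 h. Both 72 h libraries stood above all others and the 24 h libraries lay above the early ones, with a log2 fold change of 1.99 ± 0.20 (adjusted p = 0.00476, edgeR's quasi-likelihood test). Ddx4, the germ cell RNA helicase VASA, measured 14.0 and 13.8 CPM at 4 h, 13.1 and 12.3 CPM at 8 h, 17.8 and 14.6 CPM at 24 h, and 31.95 and 32.55 CPM at 72 h. It was flat over the early libraries and rose by 1.21 ± 0.17 (adjusted p = 0.0134). Mov10l1, a helicase that makes piRNA precursors available, measured 3.68 and 3.37 CPM at 4 h, 3.32 and 3.29 CPM at 8 h, 5.14 and 4.77 CPM at 24 h, and 9.21 and 8.21 CPM at 72 h. Its late and early libraries did not overlap, and it rose by 1.30 ± 0.23 (adjusted p = 0.0241).

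Sycp1, a protein of the synaptonemal complex, measured 8.90 and 7.58 CPM at 4 h, 7.37 and 8.81 CPM at 8 h, 16.04 and 6.53 CPM at 24 h, and 22.8 and 25.3 CPM at 72 h. The 24 h library of replicate 2 was its lowest of all 8, and in edgeR's quasi-likelihood test the gene rose by 1.55 ± 0.32 (adjusted p = 0.0292). Taf7l, a germ cell form of a TFIID subunit, measured 2.35 and 1.38 CPM at 4 h, 1.94 and 0.657 CPM at 8 h, 3.43 and 1.38 CPM at 24 h, and 6.16 and 5.93 CPM at 72 h. It rose by 1.74 ± 0.38 (adjusted p = 0.0338), and at 24 h only replicate 1 lay above the early libraries. Of the members that did not pass, Dazl, an RNA-binding protein of germ cells, was at 57.9 and 41.6 CPM at 4 h and 45.0 and 36.6 CPM at 72 h, and Mael at 4.195 and 3.29 CPM at 4 h and 4.67 and 3.92 CPM at 72 h. Sycp3 was at 2.05 and 3.67 CPM at 4 h and 3.72 and 6.56 CPM at 72 h, and passed only with the offset (adjusted p = 0.0304).

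Further genes of meiosis and the germline were found among the 257 and are named after their values were seen. As they were picked from the called genes, they add no weight to the result of the germline list. Genes of this kind outside the list that were not called were not counted. Smc1b, a cohesin subunit of meiosis, measured 1.53 and 2.07 CPM at 4 h, 2.304 and 2.04 CPM at 8 h, 5.02 and 3.14 CPM at 24 h, and 6.09 and 7.75 CPM at 72 h, with no overlap of late and early. Stag3, of the same complex, measured between 28.7 and 36.3 CPM early, 43.3 and 33.6 CPM at 24 h, and 72.7 and 67.9 CPM at 72 h. The others were Stk31, Zcwpw1, Fkbp6, Syce1 and D1Pas1, a copy of the helicase gene Ddx3x with which it may share reads, and their log2 fold changes lay between 1.29 (Stk31) and 1.70 (Zcwpw1). With the length offset Smc1b and these 5 were still called, and Stag3 had a log2 fold change of 0.98 (adjusted p = 0.0125, edgeR's quasi-likelihood test), just within the fold limit.

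Of the genes of amino acid supply and the integrated stress response, the ATF4-driven program that answers amino acid shortage, 41 of 45 were tested, 2 rose and none was called lower, where 1.98% of all genes rose. Their median log2 fold change was 0.18 at 72 h against 4 h and 0.14 in late against early. In edgeR's quasi-likelihood test Slc1a4 rose by 1.54 ± 0.21 (adjusted p = 0.0134), and its values at 24 and 72 h overlapped. Nupr1, a small stress-induced chromatin protein, measured 8.70 and 15.8 CPM at 4 h, 14.3 and 11.04 CPM at 8 h, 21.9 and 29.5 CPM at 24 h, and 19.2 and 37.2 CPM at 72 h. All its late libraries lay above the early ones and it rose by 1.18 ± 0.28 (adjusted p = 0.0419). Cth, which makes cysteine, had the second lowest p on the list with the opposite sign, at 187.3 and 176.7 CPM at 4 h and 98.8 and 105.6 CPM at 72 h, a log2 fold change of -0.83 that stayed within the fold limit. The promoter of Nupr1 is shown with TTGCATCA, the CHOP-ATF4 composite site, in capitals, 110 bases before the start.

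Nupr1, chr7:126625471-126625720, minus strand: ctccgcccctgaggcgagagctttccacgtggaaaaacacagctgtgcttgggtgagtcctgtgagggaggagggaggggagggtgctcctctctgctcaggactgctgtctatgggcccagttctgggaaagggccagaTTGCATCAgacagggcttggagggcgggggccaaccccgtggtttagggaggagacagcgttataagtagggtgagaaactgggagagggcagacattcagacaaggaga

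This octamer, searched on both strands, was in 5 of 33 promoters of the list (Chac1, Pycr1, Slc7a11, Nupr1 and Tars), in 1 of the 171 of genes that rose and in 0.818% of all promoters.

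Further members of the lists rose singly or in pairs, where 1.98% of all genes rose. In the Notch pathway, 2 of 13 tested genes rose, and the list's median was 0.48, or 0.18 with the length offset. Notch3, a receptor, measured 12.5 and 14.2 CPM at 4 h, 16.4 and 19.8 CPM at 8 h, 21.8 and 27.3 CPM at 24 h, and 34.6 and 30.4 CPM at 72 h. Its means stood in the order of the times and it rose by 1.29 ± 0.18 (adjusted p = 0.0140, edgeR's quasi-likelihood test). Notch4 rose by 1.22 ± 0.23 (adjusted p = 0.0249), from between 8.85 and 12.9 CPM early to 21.0 and 22.1 CPM at 72 h. With the offset Notch3 had a log2 fold change of 0.98 (adjusted p = 0.0101) and Notch4 one of 0.91 (adjusted p = 0.0219), both just within the fold limit. Of 25 imprinted genes 2 rose, with a median of 0.20 that was 0.02 with the offset. Igf2r, the receptor that clears IGF2, measured 51.0 and 58.6 CPM at 4 h, 41.8 and 65.9 CPM at 8 h, 62.1 and 103.8 CPM at 24 h, and 129.1 and 148.5 CPM at 72 h. It rose by 1.34 ± 0.18 (adjusted p = 0.0128), although its replicate 1 at 24 h overlapped the early libraries. With the offset it had 0.98 (adjusted p = 0.00476), also just within the fold limit. Zim1, at 0.819 and 0.536 CPM at 4 h and 1.90 and 2.28 CPM at 72 h, rose from a level near the filter.

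Single members also rose in other lists, where 1.98% of all genes rose. Among the immediate early genes it was 1 of 21 tested (Fosb, log2 fold change 2.504), and among fibroblast and matrix genes 1 of 12 (Thy1, 1.56). Among the neural genes it was 1 of 12 (Mtap2, a microtubule protein, 1.87), and in mitosis 1 of 40 (Cenpf, a kinetochore protein, 1.09). With the length offset Cenpf had 0.65 (adjusted p = 0.0129, edgeR's quasi-likelihood test), within the fold limit. Fosb, a subunit of AP-1, was low, at 0.512 and 0.383 CPM at 4 h and 3.25 and 1.91 CPM at 72 h. Thy1 was at 2.05 and 1.84 CPM at 4 h and 5.35 and 6.20 CPM at 72 h, and is itself one of the fibroblast markers. The other 9 summed to between 6.47 and 12 CPM in the early libraries and to 12.3 and 14.5 CPM at 72 h, and their part in the result was not tested.

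**Figure D3:**
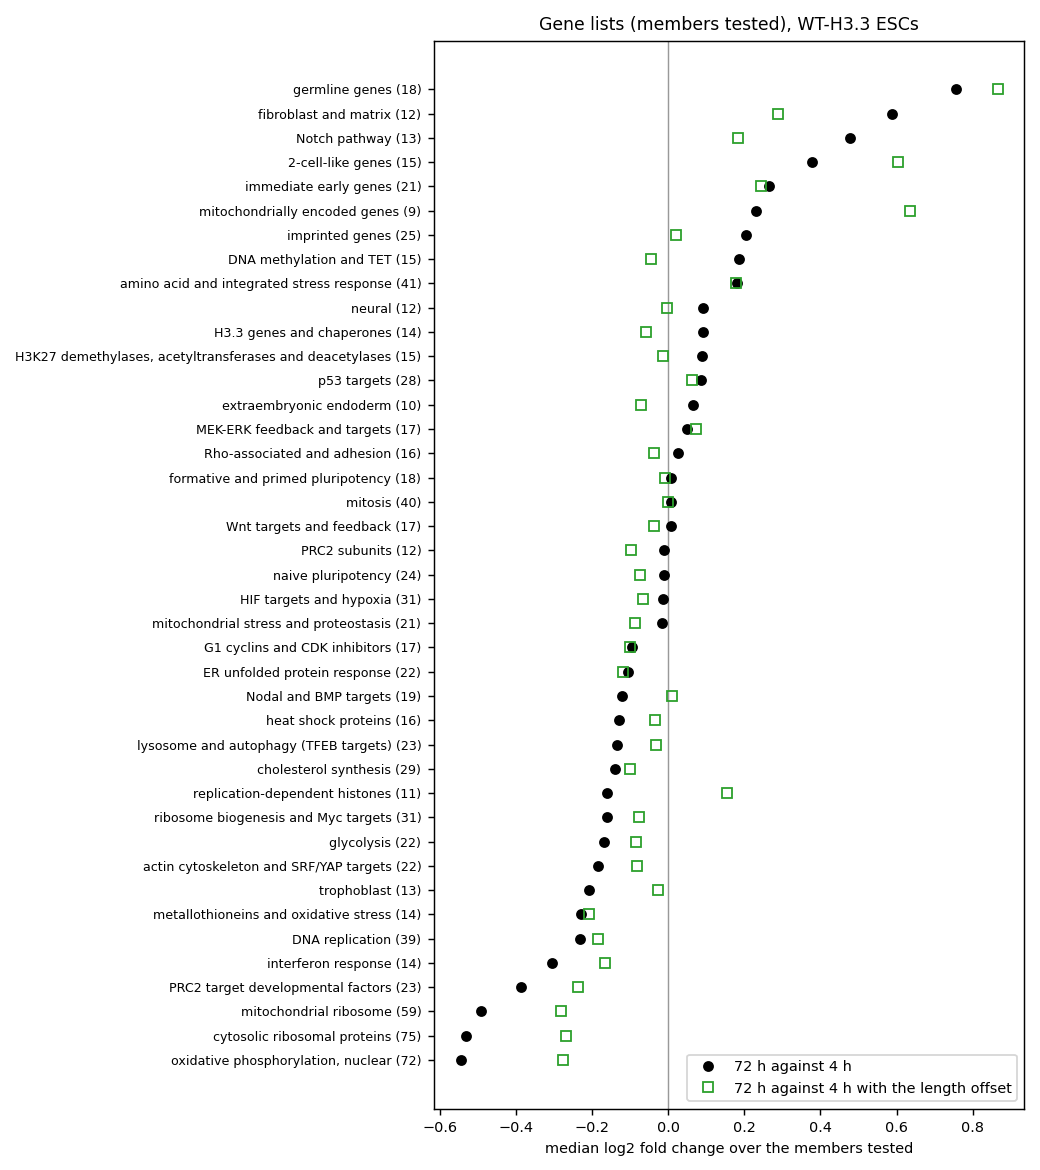
The median log2 fold change of 72 h against 4 h (horizontal axis) over the tested members of each of the 41 lists (vertical axis, members tested in parentheses), before (circles) and after (squares) the length offset. Germline genes have the highest median, 0.75, and nuclear genes of oxidative phosphorylation the lowest, -0.54.

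Among the genes of lowest p that fell at 72 h were Foxd1 and Cfp. Foxd1, a forkhead factor, measured 15.8 and 22.9 CPM at 4 h, 9.68 and 27.4 CPM at 8 h, 6.61 and 22.1 CPM at 24 h, and 2.17 and 4.29 CPM at 72 h. Replicate 1 was lower than replicate 2 at every time, and both 72 h libraries were the lowest of their replicate, with a log2 fold change of -2.65 ± 0.31 (adjusted p = 0.0115, edgeR's quasi-likelihood test). Cfp fell by 1.46 ± 0.19 (adjusted p = 0.0128) and was already low in both 24 h libraries. Egfl6, a secreted matrix protein, measured 21.5 and 20.1 CPM at 4 h, 22.9 and 16.6 CPM at 8 h, 13.7 and 9.79 CPM at 24 h, and 6.57 and 7.48 CPM at 72 h. It fell by 1.57 ± 0.22 (adjusted p = 0.0134), with late and early libraries apart.

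Genes of the cleavage embryo and oocyte were called in both directions, where 0.547% of all genes fell and 1.98% rose. Of 15 tested genes of the 2-cell-like state, Pramel7 and Pramel6 fell and Dub3 rose, and the list's median was 0.38. A positive difference was seen in 9 of the 15 and a negative one in 6. With the length offset the median was 0.60, with 2 called higher (Dub3 and Dub1a) and 2 lower. Pramel7, which drives loss of UHRF1 in naive cells, measured 53.1 and 27.7 CPM at 4 h, 45.2 and 16.8 CPM at 8 h, 48.7 and 10.7 CPM at 24 h, and 17.5 and 7.66 CPM at 72 h. It fell by 1.75 ± 0.26 (adjusted p = 0.0160, edgeR's quasi-likelihood test), most of it after 24 h in replicate 1 and before 24 h in replicate 2. Pramel6 fell by 1.22 ± 0.22 (adjusted p = 0.0241). Both have near copies in the genome, as does Dub3, so the share of reads each receives is uncertain. Ooep, of the subcortical maternal complex and named after its values were seen, was at 69.4 and 56.2 CPM at 4 h and 31.8 and 24.8 CPM at 72 h, and fell by 1.16 ± 0.17 (adjusted p = 0.0140). Nkx2-5, a cardiac homeobox factor, was the only one of 23 tested developmental factors under PRC2 control to be called, at 2.76 and 1.15 CPM at 4 h and 0.812 and 0.365 CPM at 72 h. With the length offset Nkx2-5 was not called (adjusted p = 0.0588, edgeR's quasi-likelihood test).

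A few genes for ribosomes and respiration fell at 72 h, where 0.547% of all genes fell and 1.98% rose. Of 75 tested cytosolic ribosomal protein genes 2 fell (Rpl39 and Rps27) and none rose, and their median was -0.53. Of 72 nuclear genes of oxidative phosphorylation 1 fell (Ndufb4), with a median of -0.54. Of 59 mitochondrial ribosome genes 1 fell (Mrpl12), with a median of -0.49. Without the fold limit 11, 18 and 3 of these genes had an adjusted p under 0.05, all lower, in edgeR's quasi-likelihood test, where 3.8% of all genes were higher and 2.76% lower. Rps27 measured 705.8 and 605.6 CPM at 4 h, 684.7 and 305.5 CPM at 8 h, 794.2 and 460.7 CPM at 24 h, and 323.4 and 320.8 CPM at 72 h. Its lowest library was the 8 h library of replicate 2, so the times overlapped outside of 4 and 72 h. The median exonic lengths of the 3 lists were 1464, 1328 and 1777 bases, and with the length offset their medians were -0.27, -0.28 and -0.28. With the offset no gene of the 3 lists passed the fold limit, and 12, 14 and 3 had an adjusted p under 0.05 in the lower direction and 1, 0 and 0 in the higher one, where 4.19% of all genes were lower and 4.5% higher. Of the 9 tested mitochondrially encoded genes, most of which serve respiration too, none passed, 8 had a positive difference, and the median was 0.23, or 0.64 with the offset.

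H3f3a, of the endogenous H3.3 genes, measured 163.8 and 103.3 CPM at 4 h, 171.0 and 99.1 CPM at 8 h, 192.4 and 112.4 CPM at 24 h, and 83.3 and 68.6 CPM at 72 h. Both 72 h libraries were the lowest of their replicate, and the log2 fold change of -0.78 ± 0.16 had an adjusted p of 0.0315 in edgeR's quasi-likelihood test without reaching the fold limit. H3f3b measured 658.3 and 608.9 CPM at 4 h and 540.2 and 623.0 CPM at 72 h, a difference of -0.11 ± 0.18 that did not pass. Both genes have processed copies, and reads of the tagged transgene may align to them, so the transgene was not followed by these values. Of 14 H3.3 genes and chaperones, Supt16h, a subunit of the chaperone FACT, was the other with an adjusted p under 0.05. Its log2 fold change was 0.59 ± 0.14 (adjusted p = 0.0423, edgeR's quasi-likelihood test). At that limit, without the fold limit, 3.8% of all genes were higher and 2.76% lower. Among 12 PRC2 subunits none passed, and their median was -0.01. Ezh2, the catalytic subunit, was at 321.7 and 266.5 CPM at 4 h and 276.8 and 293.5 CPM at 72 h, Eed at 393.7 and 342.6 CPM and 263.0 and 286.5 CPM, and Suz12 at 354.0 and 408.0 CPM and 392.6 and 435.0 CPM.

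No gene of the pluripotency lists was called in 72 h against 4 h. Nanog measured 1518 and 1350 CPM at 4 h, 1506 and 1171 CPM at 8 h, 1747 and 1420 CPM at 24 h, and 1147 and 1240 CPM at 72 h, and Sox2 lay between 365.6 and 488.8 CPM in the 8 libraries. Neither passed in edgeR's quasi-likelihood test (adjusted p = 0.332 and 0.454 for 72 h against 4 h). Of 24 naive pluripotency genes none was called, and Dppa5a and Nr0b1 had an adjusted p under 0.05, both lower. At that limit, without the fold limit, 3.8% of all genes were higher and 2.76% lower. The median of the naive list was -0.01. Dppa5a, an RNA-binding protein of ESCs, was at 1037 and 928 CPM at 4 h and 554 and 485 CPM at 72 h, a log2 fold change of -0.92 ± 0.16 (adjusted p = 0.0216), and its 24 h libraries were no lower than at 4 h. Dppa3, a maternal factor that guards DNA methylation, was called only with the length offset (log2 fold change 1.08, adjusted p = 0.0384), and without it had 0.71 (adjusted p = 0.214). Of 18 formative and primed genes Lin28b (1.00), Dnmt3a (0.86) and Dnmt3b (0.70) had an adjusted p under 0.05, all higher. The median of this list was 0.008, with 10 positive and 8 negative differences. Dnmt3a, a de novo DNA methyltransferase, was at 69.3 and 55.0 CPM at 4 h and 112.2 and 112.7 CPM at 72 h, and with the offset its adjusted p was 0.330.

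Genes that the study names in other cells and comparisons did not pass here. Vegfa lay between 15.7 and 29.6 CPM over the 8 libraries, Ddit4 between 33.6 and 47.8 CPM, Bhlhe40 between 15.2 and 31.7 CPM, Grin1 between 1.22 and 3.75 CPM, A2m between 14.9 and 49.4 CPM and Ier3 between 4.14 and 9.12 CPM. The log2 differences of late against early lay between -0.42 (A2m) and 0.14 (Ddit4), and adjusted p was between 0.402 (A2m) and 0.860 (Ier3) in edgeR's quasi-likelihood test. Of 31 hypoxia genes none was called, with a median of -0.01. In the list of the interferon response 1 of 14 tested genes, Oas1a, was called lower at 72 h (log2 fold change -1.35). Of all genes 0.547% were called lower. The lists of p53 targets, glycolysis, DNA replication, Wnt targets, Nodal and BMP targets, heat shock proteins, histones and mitochondrially encoded genes had no call in 72 h against 4 h.

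The same interval was compared in the 8 WT-H3.3 libraries with GSK343 and in the 8 H3.3K27M libraries, each from its own 4 h libraries. The GSK343 libraries held between 1247934 and 8724336 counts and the H3.3K27M libraries between 6590661 and 11949871. Of the 257 genes that rose, 256 (99.6%) were higher at 72 h with GSK343 and 221 were called there, among 865 called higher in all. Of the 71 that fell, all 71 were lower and 56 were called, among 488. In H3.3K27M cells 253 (98.4%) and 68 (95.8%) had the same direction, with medians of 0.86 and -1.02. None of them was called there, and neither was any other of the 12987 genes. In H3.3K27L cells 237 (92.2%) and 60 (84.5%) had the same direction. That line had 1 library at 72 h, since the other held 68378 counts and was left out, so its calls are not given. Over all 12987 genes, 48.9% were higher at 72 h with GSK343, 52.5% in H3.3K27M cells and 49.2% in H3.3K27L cells. In edgeR's quasi-likelihood test Piwil2 had a log2 fold change of 2.31 with GSK343 (adjusted p = 1.52e-10) and 1.40 in H3.3K27M cells, which did not pass (adjusted p = 0.287). Foxd1 had -2.36 with GSK343 (adjusted p = 1.82e-07) and -3.31 in H3.3K27M cells (adjusted p = 0.287).

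The difference of late against early itself was tested between lines over 16 libraries. No gene was called (0%) between WT-H3.3 and H3.3K27M, with 89 of 13050 at an unadjusted p under 0.05, nor between WT-H3.3 with and without GSK343, with 248 of 12940, in edgeR's quasi-likelihood test, and DESeq2 called none in either. These tests do not show that the time courses are alike.

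Taken replicate by replicate, the change of the length coefficient from 4 to 72 h was positive in both WT-H3.3 replicates (0.87 and 0.59), in both with GSK343 (0.79 and 1.03) and in replicate 1 of H3.3K27M (0.74), and negative in replicate 2 of H3.3K27M (-0.21). In that last pair of libraries the genes that rose in WT-H3.3 had a median difference of 0.33, and 172 of the 257 were higher at 72 h (66.9%, against 44.8% of all genes). The genes that fell had a median of -0.65 there, the germline genes 0.18, with 12 of 18 higher, the ribosomal genes 0.09 and the respiration genes -0.05. For the genes that rose, the medians were 1.34 and 1.58 with GSK343 and 1.31 in replicate 1 of H3.3K27M. The WT-H3.3 pairs had 1.43 and 1.12, but the genes were selected on these libraries. In the other 5 pairs the medians lay between 0.60 and 0.85 for the germline genes and between -0.75 and -0.39 for the ribosomal genes. Those of the respiration genes lay between -0.81 and -0.47. The genes of amino acid supply and the integrated stress response differed between the groups. In replicates 1 and 2 their medians were 0.21 and 0.26 in WT-H3.3, -0.08 and -0.13 with GSK343, and 0.28 and -0.07 in H3.3K27M.

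A comparison within replicate 2 can be had among WT-H3.3 libraries with a positive length coefficient, the 72 h library minus the mean of the 8 and 24 h libraries, chosen after the data were seen and with no replicate. There the germline genes had a median difference of 0.93, with 17 of 18 higher at 72 h, against -0.03 for all genes, of which 45.5% were higher. The ribosomal genes had -0.14, with 28 of 75 higher, and the respiration genes -0.17, with 14 of 72 higher. The genes that rose had 0.61 and those that fell -0.73, but both were selected with the same 72 h library.

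**Figure D4:**
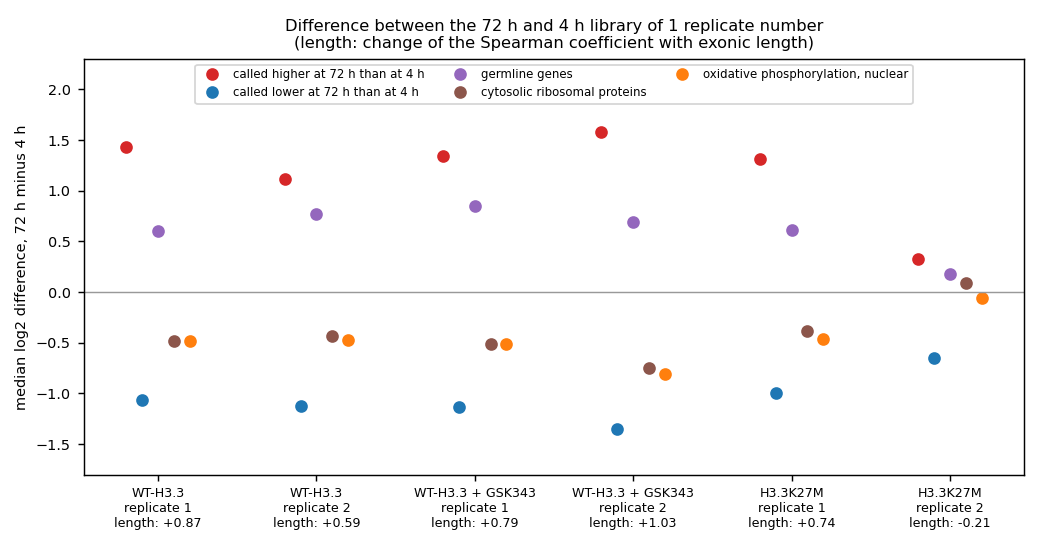
The median log2 difference of 72 h minus 4 h (vertical axis) within each replicate of WT-H3.3, WT-H3.3 with GSK343 and H3.3K27M (horizontal axis), for the genes called higher and lower in WT-H3.3 and for 3 lists, with 1 point a pair of libraries. In replicate 2 of H3.3K27M the genes called higher sit at 0.33 and the ribosomal genes at 0.09, apart from the other 5 pairs. The genes called higher and lower were selected on the WT-H3.3 libraries.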

How the data were processed

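RNA-seq counts per gene of 32 ESC libraries were deposited by the authors as 1 table of raw counts, made from reads aligned with STAR 2.7.1 to mm9; replicates were not pooled. The column names gave line, time and replicate of each library. The 8 WT-H3.3 columns without GSK343 were used, with H3.3K27M, H3.3K27L and GSK343 columns for the comparisons that name them. Of 55471 genes, 32589 were matched to GENCODE M1 (98.1% of counts), and 2532 on chromosome 8 (5.7% of counts) were left out. Counts were tested with edgeR 4.0.16 in R 4.3.3: TMM, filterByExpr, quasi-likelihood F test, Benjamini-Hochberg over all genes tested, and calls at an adjusted p under 0.05 with a fold above 2 or below 0.5. Late against early had 5 residual degrees of freedom, and the fit with a mean for each time had 3. DESeq2 1.42.0 was an alternative. Standard errors are the log2 fold change divided by the square root of F. Library totals between 8245552 and 16083610 limit the precision of genes of a few CPM.

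The replicate number entered as a block. Over 8881 genes, the differences between replicates 1 and 2 correlated between 0.695 and 0.823 among 4, 8 and 24 h. With those at 72 h they correlated less, at 0.404 (4 h), 0.209 (8 h) and 0.185 (24 h). The methods call the replicates biological and weeks apart, so the numbers were taken to pair the libraries. Up to 24 h the replicates also differed in length coefficient, and its part in these correlations was not tested. No 2 libraries agreed within sampling noise (lowest chi-square per gene 5.92). P-values measure the spread between these cultures of 1 line.

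The genes named are the 12 of lowest p per direction with late and early separate within each replicate, the 5 of largest change at 5 CPM or more, 10 genes of interest, the called members and the 4 of lowest p of each of 41 gene lists, and 3 per direction for the other comparisons. Where none was called, those of lowest p are given. Results of 2 of the genes so named are not reported here. The members, lists and rule were chosen with earlier results of these data known. The length offset subtracts, per library, a lowess (span 0.3) of log2 expression on exonic length. Promoters, 250 bases before the start of 27025 genes, are those of RefSeq (GRCm38.p6) and were matched by symbol. Each fit was tested on simulated data. Alternatives were another scaling (RLE), no filter, a 10 CPM minimum, DESeq2, no block, chromosome 8 kept, other sets of times and leaving out each library.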

Additional observations from a re-analysis of the deposited data

Results flagged for a closer look

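Of 178 groups of 4 libraries tested for a library far from the others, 8 had one, and chance gives about 1 in 20. Among the early libraries the 8 h library of replicate 2 stood apart for A2m (49.4 CPM, the others between 22.5 and 26.7 CPM), Ier3 (4.14 CPM against 8.65 to 9.12 CPM), Ndufb4 (7.43 CPM against 11.6 to 12.2 CPM) and Notch4 (12.9 CPM against 8.85 to 9.34 CPM). The 8 h library of replicate 1 was apart for Specc1 (5.25 CPM against 6.11 to 6.28 CPM). Among the late libraries the 24 h library of replicate 1 was apart for Ndufb4 (12.9 CPM, the others between 5.29 and 6.53 CPM) and Oas1a (20.2 CPM against 6.11 to 7.92 CPM), and the 72 h library of replicate 2 for Vegfa (29.6 CPM against 18.9 to 20.2 CPM). The 8 h library of replicate 2 had the highest length coefficient of the 8 (0.49) and the 24 h library of replicate 1 one of -0.49. Their part in these values was not tested.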

How the results depend on the processing

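Late against early had 0 calls as tested and also without the replicate block, with RLE, with a minimum of 10 CPM, with chromosome 8 kept, and with 24 and 72 h against 4 h or 8 h alone. It had 52 with a mean for each time, 83 with that and the length offset, 20 with the length offset, 163 with no filter on low counts, 86 with DESeq2, 2 for 24 h against 4 and 8 h, 272 for 72 h against 4 and 8 h, and 11 over all 32 libraries. Leaving out 1 library gave between 0 and 95. For 8 h against 4 h, with 0 calls, no filter gave 2 and leaving out 1 library between 0 and 1. For 24 h against 8 h, with 0 calls, no filter gave 20. For 72 h against 24 h, with 0 calls, no filter gave 230, DESeq2 68 and the length offset 22, and leaving out 1 library gave between 0 and 501. For 72 h against 4 h, with 328, the pairing mattered: without the replicate block 2 genes were called. No filter gave 605, the 4 and 72 h libraries alone 633 and no fold limit 852, against 330 with RLE, 293 with DESeq2 and 261 with the length offset, and leaving out 1 library gave between 0 and 1072. In the difference between lines 0 calls became 9 with no filter for GSK343.

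Of 868 alternative values of 40 named genes in late against early, 710 kept direction and side of the threshold, 131 passed it and 27 had the opposite sign, all of genes whose adjusted p lay between 0.674 (H3f3a) and 0.988 (Nanog) as tested. Of 544 values of 39 named genes in 72 h against 4 h, 345 kept both, 199 lost the call and 0 changed sign. The cause was not tested. H3f3a had 0.19 for 24 h against 4 and 8 h. H3f3b had -0.045 for 24 and 72 h against 4 h, -0.050 for 72 h against 4 and 8 h and between -0.063 and 0.13 without 1 library. Vegfa had -0.080 for 24 and 72 h against 8 h, -0.060 for 24 h against 4 and 8 h and between -0.0083 and 0.20 without 1 library. Grin1 had 0.078 for 24 and 72 h against 4 h, 0.13 for 72 h against 4 and 8 h and between -0.45 and 0.13 without 1 library. Bhlhe40 had 0.14 for 72 h against 4 and 8 h and between -0.27 and 0.056 without 1 library. Ier3 had 0.12 for 24 and 72 h against 8 h, 0.031 with the length offset, 0.016 with it and a mean for each time, and between -0.37 and 0.028 without 1 library. Nanog had -0.0058 with a mean for each time, -0.011 with no filter, -0.049 for 24 and 72 h against 4 h, -0.21 for 72 h against 4 and 8 h, -0.0041 over all 32 libraries, and between -0.11 and 0.13 without 1 library.

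The 8 libraries have 2 replicates a time and 1 line, so few degrees of freedom remain, and depth limits the precision of genes of a few CPM.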
